A study of Drosophila melanogaster with 3 samples.

Results

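The Cpr genes of *Drosophila melanogaster* encode cuticular proteins and carry symbols made of Cpr and a number for the cytological band where they lie. Members were the protein-coding genes of the Ensembl annotation (BDGP6.54, the coordinates of dm6) whose symbol is Cpr followed by a digit, which gave 70 of 13945 protein-coding genes (0.502%). Binding of the transcription factor Scalloped was mapped by chromatin immunoprecipitation and sequencing (ChIP-seq) in 1 group of 3 biological replicates, each its own biosample. The material was whole embryos of mixed sex aged 4 to 20 h from a transgenic line in which green fluorescent protein (GFP) is joined to the C-terminal end of Scalloped, and every sample came from this line. The tagged protein was pulled down with an antibody against GFP after sonication to 200 to 800 bp. With 1 group there was no contrast between conditions and no test, so all values below are descriptions.

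Cpr proteins share the Rebers-Riddiford domain, which binds chitin. They are made by epidermal cells and secreted into the cuticle, the exoskeleton that is first laid down late in embryogenesis for the larva and is replaced at each molt. Many of the genes are short, stand next to each other as products of local duplication, and are expressed in particular stages and body regions. Scalloped (gene sd) is the fly TEA-domain factor and acts on DNA with partners such as Yorkie, the coactivator of the Hippo pathway, or Vestigial. The core site of TEA-domain factors is CATTCC.

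A Scalloped summit lay within 1 kb of a transcription start site (TSS) in 11 of 70 Cpr genes (15.7%), beside 30.5% of all protein-coding genes and 21.4% of genes of like length and number of TSSs. Of the 14 summits there, 3 were at or above the median signal of the list, and none had CATTCC within 100 bp, which with 14 summits cannot be told from the 16.5% of summits at protein-coding TSSs. The summit windows below are shown first because they carry the sequence result: the strongest summit at Cpr67Fb, the one nearest to Cpr78Ca, the one at Cpr67B and the one at Cpr65Aw. Each is 201 bases of the RefSeq Release 6 genome (dm6, plus strand) with the summit in the middle. Both strands were searched for CATTCC, for the related AATTCC and for AACCGGTT, and capitals mark a match. No window holds CATTCC, in Cpr67B AATTCC starts 18 bases right of the summit, and in Cpr65Aw the Grainyhead site AACCGGTT starts 75 bases left of it. The short stretches that follow are the 60 bases upstream of a TSS, 5′ to 3′ on the gene's strand, with TATAAA in capitals where it lies 45 to 11 bases upstream. TATAAA is the usual form of the TATA box, a core promoter element. They show the form that most Cpr promoters have, in Cpr65Av, Cpr65Ea, Cpr67Fa1 and Cpr78Cc, and a pair without it, in Cpr65Aw and Cpr78Ca.
Cpr67Fb summit, chr3L:10893284-10893484: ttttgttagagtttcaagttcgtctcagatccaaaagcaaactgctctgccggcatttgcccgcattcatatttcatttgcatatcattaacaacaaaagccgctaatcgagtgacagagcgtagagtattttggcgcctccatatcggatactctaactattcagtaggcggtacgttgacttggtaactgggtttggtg
Cpr78Ca summit, chr3L:21293013-21293213: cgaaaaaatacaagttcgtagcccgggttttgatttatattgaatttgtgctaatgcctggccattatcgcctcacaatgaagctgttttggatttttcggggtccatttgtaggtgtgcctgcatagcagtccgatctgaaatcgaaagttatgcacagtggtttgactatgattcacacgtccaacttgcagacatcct
Cpr67B summit, chr3L:9404202-9404402: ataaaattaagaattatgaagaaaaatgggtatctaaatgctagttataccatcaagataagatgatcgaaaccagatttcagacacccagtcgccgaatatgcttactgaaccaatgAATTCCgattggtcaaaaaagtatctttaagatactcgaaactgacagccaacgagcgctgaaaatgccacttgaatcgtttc
Cpr65Aw summit, chr3L:6141639-6141839: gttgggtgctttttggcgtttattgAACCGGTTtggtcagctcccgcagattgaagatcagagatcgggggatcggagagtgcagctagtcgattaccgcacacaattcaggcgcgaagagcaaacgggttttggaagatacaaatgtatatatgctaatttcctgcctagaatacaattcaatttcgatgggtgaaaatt
Cpr65Av upstream, chr3L:6139975-6140034, minus strand: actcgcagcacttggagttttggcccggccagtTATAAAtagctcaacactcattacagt
Cpr65Ea upstream, chr3L:7086609-7086668, minus strand: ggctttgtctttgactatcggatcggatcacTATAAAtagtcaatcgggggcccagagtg
Cpr67Fa1 upstream, chr3L:10889930-10889989, plus strand: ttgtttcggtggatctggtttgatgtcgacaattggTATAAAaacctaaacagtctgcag
Cpr78Cc upstream, chr3L:21300520-21300579, plus strand: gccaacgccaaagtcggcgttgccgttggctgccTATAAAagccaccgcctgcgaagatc
Cpr65Aw upstream, chr3L:6142414-6142473, minus strand: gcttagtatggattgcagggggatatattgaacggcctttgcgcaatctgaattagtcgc
Cpr78Ca upstream, chr3L:21292801-21292860, minus strand: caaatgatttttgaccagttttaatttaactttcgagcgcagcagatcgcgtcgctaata

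The deposited data were lists of peaks, each with a summit and with a signal value that the authors' peak calling gave it. There were 30000 peaks in each of the 3 replicate lists and in the pooled list. The shorter list made by irreproducible discovery rate (IDR), a measure of whether replicates rank a peak alike, held 10553, and all 10553 were the strongest peaks of the pooled list. A summit in the pooled list alone was thus 1 of lower signal. Signal values and ranks, with 1 as the strongest, were used within a list only. Read totals were not in the files used here, and the depth behind a peak is unknown. In whole embryos, binding in few cells and weak binding in many cannot be told apart. How many of the Cpr genes were expressed or had open chromatin in these embryos was not tested.

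Of the 70 Cpr genes, 11 had an IDR summit within 1 kb of a TSS: Cpr47Eg, Cpr49Aa, Cpr49Ab, Cpr65Av, Cpr65Aw, Cpr65Ay, Cpr67B, Cpr67Fb, Cpr73D, Cpr78Ca and Cpr78Cb. That is 15.7% of the family (95% exact Clopper-Pearson interval 8.11 to 26.4%), against 30.5% of all protein-coding genes. The interval treats genes as independent and covers counting error only, while neighbouring Cpr genes can share a summit. Cpr genes are shorter than most, with a median length of 1094 bp (457 to 18590 bp) against 2166 bp, and 63 of them have 1 TSS while the other 7 have 2. Among all protein-coding genes, 73.5% have 1 TSS. For each Cpr gene, the other genes with the same TSS number class and a length within a factor of 1.5 were taken (203 to 3809 genes, median 2688), and 21.4% of these had an IDR summit as a mean over the Cpr genes. It ranged from 12.4 to 58.6% between Cpr genes. The value of 21.4% lies inside the interval of the family's share, so a lower share than genes of like length and TSS number was not detectable with 70 genes.

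The pooled list gave a like picture at a lower threshold. A pooled summit lay within 1 kb of 18 Cpr genes (25.7%, interval 16 to 37.6%), against 42.7% of all genes and 32.9% of genes of like length and TSS number. Among IDR peaks at or above the list's median signal, 4 Cpr genes had a summit (5.71%), against 20% of all genes. Within 500 bp of a TSS the IDR count was 6 (8.57%, all genes 25.6%), and within 2000 bp it was 17 (24.3%, all genes 37%). In the strongest 10553 peaks of replicates 1, 2 and 3 taken alone, 11, 10 and 10 Cpr genes had a summit (15.7%, 14.3% and 14.3%), against 28.7%, 35.3% and 30.6% of all genes. Genes of like length and TSS number had shares of 19.8%, 26.3% and 21.4% in the same lists, between those of the Cpr genes and of all genes in each replicate. In all, 8 Cpr genes were found in all 3 of these lists. The matching share of all protein-coding genes was not counted, so this number cannot be read as high or low.

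The other protein-coding genes around the family were closer to the general share than the Cpr genes. Of 250 such genes with a TSS within 20 kb of a Cpr TSS, 66 had an IDR summit within 1 kb (26.4%). In the whole lists of 30000 peaks, 19, 22 and 17 Cpr genes had a summit in replicates 1, 2 and 3 (27.1%, 31.4% and 24.3%), against 41.9%, 49.2% and 43.3% of all protein-coding genes. In all 3 of these lists were 14 Cpr genes (20%), against 38.6% of all genes. No summit within 1 kb in any replicate was found for 44 of the 70 (62.9%), against 47.9% of all genes. Uniqueness of the sequence was high: in 68 of 70 genes at least 90% of the 50-base stretches within 1 kb of a TSS occur once in the genome, and all 11 genes with an IDR summit were among them. The exceptions were the near-identical copies Cpr65Ax1 (38.5% unique) and Cpr65Ax2 (38.4%), which had no IDR or pooled summit and where the placement of reads is uncertain.

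Cpr TSSs lay farther from IDR summits than the TSSs of all protein-coding genes, mainly at short range. The median distance to the nearest IDR summit was 6860 bp for Cpr genes and 4349 bp for all genes. For genes of like length and TSS number it was 5892 bp, as the mean over the Cpr genes of the median of each one's like genes. In the strongest 10553 peaks of replicates 1, 2 and 3 the Cpr median was 5933, 6014 and 6602 bp. The median of like genes was not counted in those lists. Within 100 bp of the TSS no Cpr gene had an IDR summit, where 12% of all genes did, and 1 (1.43%), Cpr78Cb, had one within 250 bp, against 21.3%. Shares at 100 and 250 bp were not counted for genes of like length and TSS number. Within 500 bp theirs was 17.3%, beside 8.57% of Cpr genes and 25.6% of all genes. Within 5000 bp the shares of Cpr genes and all genes were 42.9% and 52.8%, and within 20000 bp 80% and 84%. At the other end, 29 Cpr genes (41.4%) were more than 10 kb from any IDR summit, against 30.7% of all genes, and Cpr12A on X was the farthest at 56990 bp. In the pooled list Cpr78Cb had a summit 17 bp from a TSS, the shortest distance in the family, and the medians were 2481 bp for Cpr genes and 2228 bp for all genes.

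**Figure D1:**
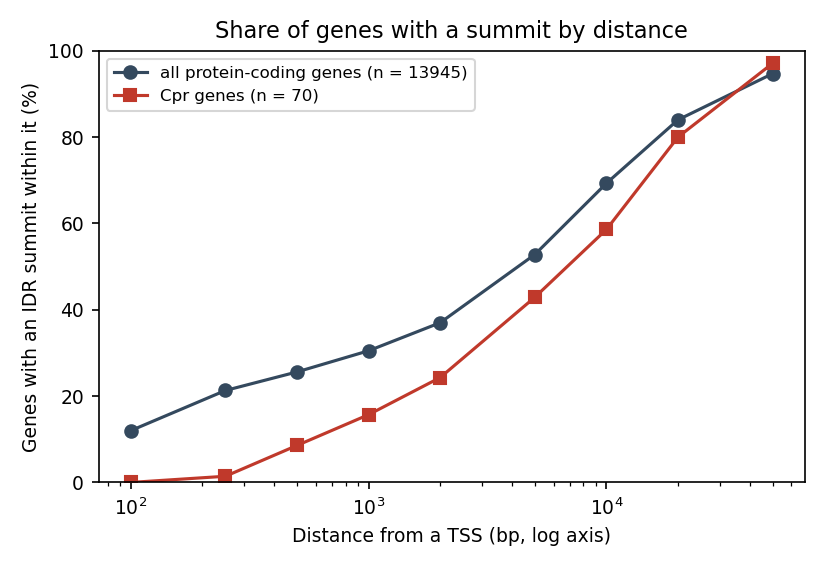
Share of genes (%, vertical axis) whose nearest IDR summit is closer than a given distance (bp from a TSS, log axis), for the 70 Cpr genes and for all 13945 protein-coding genes. At 1000 bp the curves stand at 15.7% and 30.5%, and they meet between 20000 and 50000 bp.

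The threshold of 1 kb did not fall into a gap in the distances. Just inside it were Cpr65Aw at 674 bp, Cpr49Aa at 833 bp and Cpr49Ab at 981 bp. Just outside were Cpr78Cc at 1170 bp, Cpr49Ad at 1188 bp, Cpr23B at 1247 bp, Cpr65Au at 1602 bp and Cpr67Fa2 at 1670 bp. The summit 1188 bp upstream of Cpr49Ad was stronger than any inside the window, with a signal of 2581 and rank 327. It was nearer to the TSS of the odorant receptor gene Or49a, 596 bp upstream of it. Such assignments by distance do not show which gene a site acts on.

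The 11 genes shared 14 distinct summits, 12 on 3L and 2 on 2R. Of the 35 Cpr genes on 3L, 8 had an IDR summit, and of the 21 on 2R, 3 did. None of the 5 genes on 2L, the 5 on 3R and the 4 on X had one. The share of all protein-coding genes was similar on these arms, at 32.1% on 3L, 33.3% on 2R, 29% on 2L, 29.9% on 3R and 28.2% on X. With 4 or 5 genes on an arm, a share of 0 cannot be told from that of the arm.

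The Cpr genes stood mostly in clusters, and so did those with summits. Members were joined when the TSSs of neighbouring Cpr genes lay within 20 kb, which gave 34 groups. These were 10 clusters of at least 3 genes with 45 genes in all, 1 pair and 23 genes on their own. In the clusters 9 of 45 genes had an IDR summit (20%, interval 9.58 to 34.6%), and outside them 2 of 25 did (8%, interval 0.984 to 26%), namely Cpr67B and Cpr73D. The intervals overlap widely. Of the 10 clusters, 5 held a gene with an IDR summit and 6 a gene with a pooled summit.

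**Figure D2:**
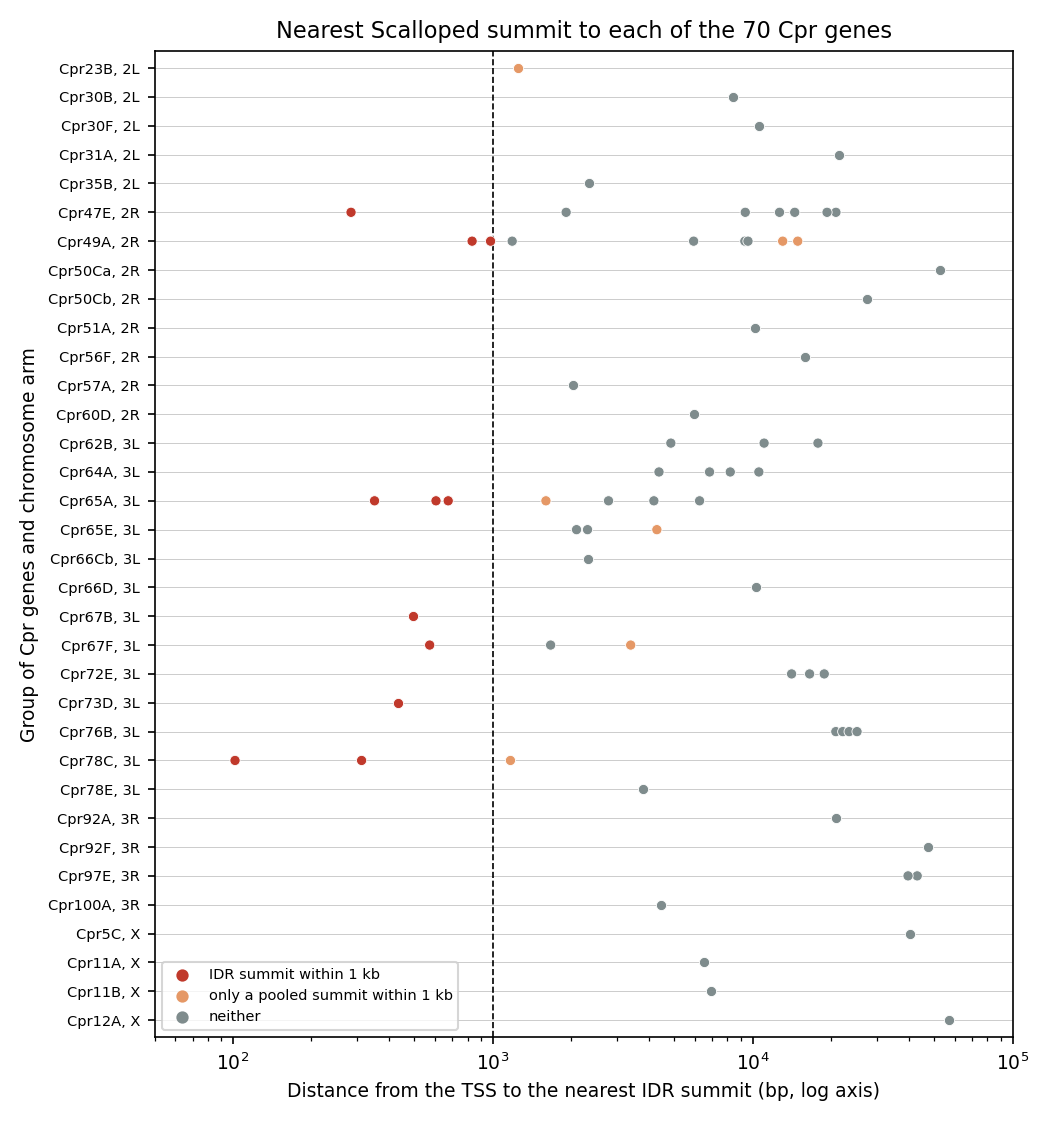
Distance from the TSS of each of the 70 Cpr genes to the nearest IDR summit (bp, log axis), with 1 line for each of the 34 groups, named with its chromosome arm, and 1 point for each gene. The dashed line marks 1 kb. The 11 genes left of it sit in 7 groups, and the genes of Cpr72E and Cpr76B are all more than 10 kb away.

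The clusters ranged from dense to empty. Over a cluster and 2 kb on either side, Cpr78C (9.31 kb on 3L) held 7 IDR and 14 pooled summits, or 5.26 and 10.5 per 10 kb, against 0.788 and 2.24 per 10 kb over the arms used. Cpr67F had 2.3 IDR summits per 10 kb, Cpr65A 2.04 and Cpr47E 1.95. Cpr49A, the largest cluster with 8 genes over 38.5 kb, had 0.47. No IDR or pooled summit was found in or within 2 kb of Cpr64A (4 genes), Cpr72E (3 genes) or Cpr76B (4 genes). The nearest IDR summit was 14117 to 18854 bp away from the TSSs of Cpr72E and 20888 to 25205 bp from those of Cpr76B. In replicate 2 alone, 1 summit among its strongest 10553 lay in the span of Cpr76B.

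In Cpr78C all 3 genes had a pooled summit within 1 kb, and 2 had an IDR summit. The map of the cluster shows that its strongest IDR summits lay more than 1 kb from any Cpr TSS. They had signals of 1062 (rank 1918), 1170 bp upstream of Cpr78Cc and between it and CG43702, and 1045 (rank 1986), past the other end of the cluster near the end of pzg. The cluster also contains Edg78E, another cuticle protein gene. Between the divergent genes Cpr78Ca and Cpr78Cb lay a summit 313 bp upstream of Cpr78Ca (21293113 on 3L, interval 21292959 to 21293247), with signal 486 and rank 6257. Its signal in replicates 1, 2 and 3 was 187, 38.1 and 259, and its rank 5423, 20382 and 4861. The summit was therefore far lower in the order of replicate 2 than in the other replicates.

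A further summit in the same gap, 705 bp upstream of Cpr78Cb and 987 bp upstream of Cpr78Ca (21293787, interval 21293630 to 21293965), had signal 395 and rank 8003. Its replicate ranks were 8380, 8410 and 6952, close to each other. Cpr78Cb had 2 more, at 102 bp upstream of its second TSS (21295294, interval 21295159 to 21295526, in the 5′ UTR of the longer transcript) and 997 bp downstream of that TSS (21296393, interval 21296231 to 21296468, in the 3′ UTR). These had signals 341 and 475 and ranks 9483 and 6436. In replicates 1, 2 and 3 the summit at 102 bp ranked 7645, 12726 and 10229, and that at 997 bp 6746, 8295 and 6027. Cpr78Cb also had a pooled summit 17 bp downstream of its first TSS, with signal 303 and rank 10738, just outside the IDR list. It was found in all 3 replicates, at ranks 7229, 15614 and 13397. Cpr78Cc had pooled summits at 142 bp upstream (rank 11567, found in all 3 replicates) and 970 bp upstream (rank 10889, found in 2).

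**Figure D3:**
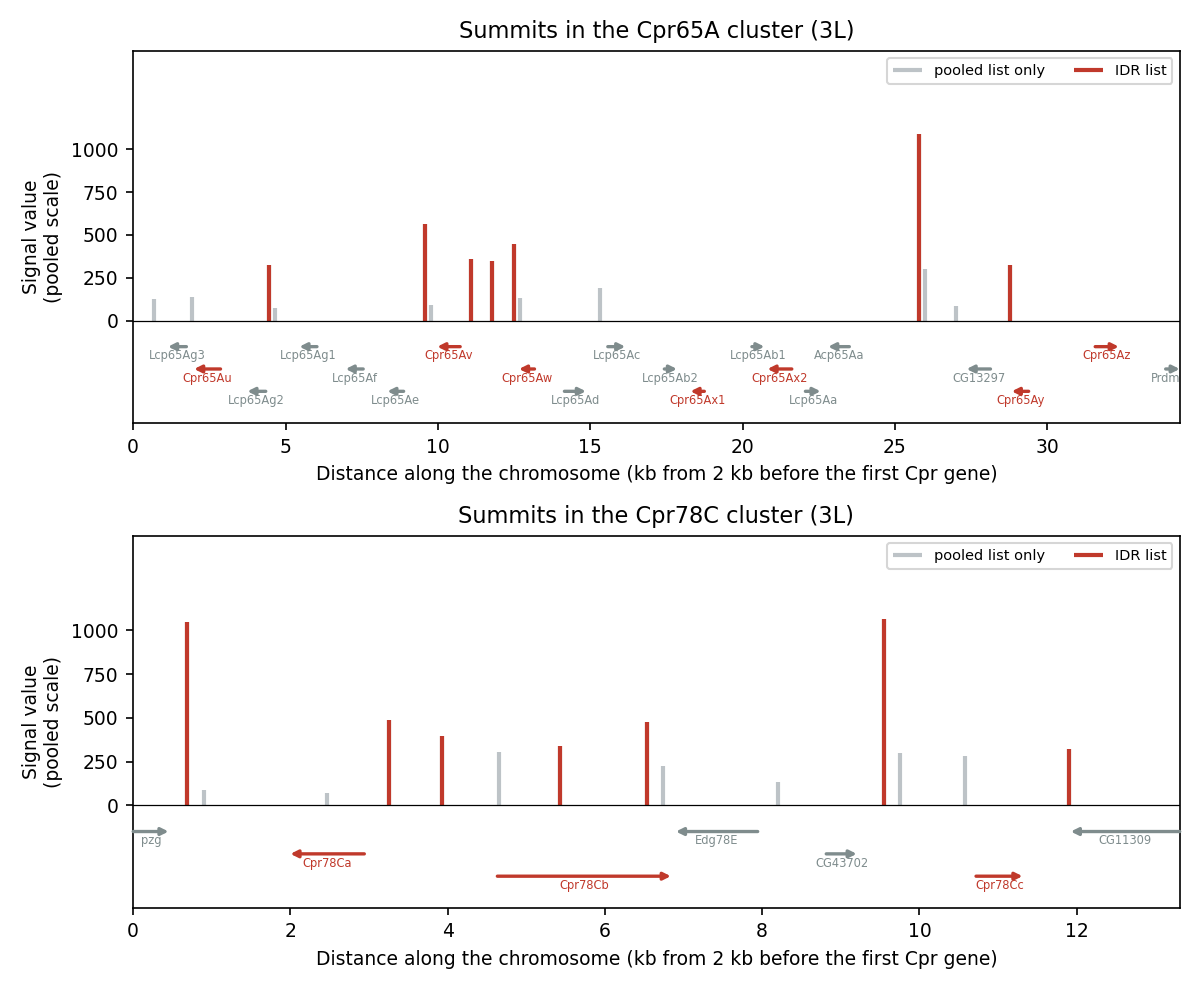
Summits along the Cpr65A and Cpr78C clusters on 3L, with signal value on the scale of the pooled list (vertical axis) against distance (kb from 2 kb before the first Cpr gene). Red lines are summits in the IDR list, grey lines those in the pooled list alone, and arrows are protein-coding genes in their direction of transcription, Cpr genes in red. In Cpr78C the strongest lines, at 1062 and 1045, stand next to CG43702 and pzg.

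In Cpr65A, 3 of 7 genes had an IDR summit. The cluster is interleaved with the larval cuticle protein genes Lcp65A and the adult cuticle gene Acp65Aa, which encode proteins of the same domain family. The summit 351 bp upstream of Cpr65Av (6140325, interval 6140260 to 6140402) had signal 358 and rank 8966, with ranks of 10134, 10002 and 9027 in the replicates. The summit 674 bp downstream of the TSS of Cpr65Aw (6141739, interval 6141497 to 6141892) had signal 447 and rank 6906, with replicate ranks of 6720, 11987 and 5405. That of Cpr65Ay, 605 bp downstream of its TSS (6158025, interval 6157978 to 6158127), was the weakest of the 14, with signal 324 and rank 10020, and it lay 648 bp upstream of CG13297. The strongest summit of the cluster had signal 1086 and rank 1845 and lay more than 1 kb from any Cpr TSS. Cpr65Ax1, Cpr65Ax2 and Cpr65Az had none within 1 kb in the IDR or pooled list, and Cpr65Au had a pooled summit alone, at 930 bp (rank 20315), nearer to Lcp65Ag3.

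In Cpr67F, Cpr67Fb had 2 upstream summits in overlapping intervals. The stronger, 789 bp upstream (10893384 on 3L, interval 10893179 to 10893628), had signal 981 and rank 2219, and its signals in replicates 1, 2 and 3 were 353, 239 and 401, at ranks 2040, 2373 and 2432. The weaker, 572 bp upstream (10893601, interval 10893179 to 10893824), had signal 486 and rank 6259, with replicate ranks of 19573, 5131 and 4491. The first was at a similar place in the order of every replicate and the second was not. Its window was rich in A and T, with a GC content of 17.4%. Cpr67Fa1 had a pooled summit alone, 811 bp upstream (rank 16445).

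On 2R, the Cpr49A and Cpr47E clusters each had 1 IDR summit within 1 kb of a Cpr TSS. The summit at 12377459 (interval 12377276 to 12377633) stood between Cpr49Aa, 833 bp downstream of its TSS, and Cpr49Ab, 981 bp upstream, and was counted for both. It had signal 749 and rank 3437, and ranks of 3764, 4099 and 3455 in the replicates. The summit 285 bp upstream of Cpr47Eg (11278730, interval 11278618 to 11278869) had signal 539 and rank 5455, with replicate ranks of 4855, 8669 and 5348. The other 6 genes of Cpr47E had no summit within 1 kb, although the cluster with its margins held 6 IDR summits. In Cpr49A, Cpr49Af and Cpr49Ag had pooled summits alone, the strongest of them 323 bp upstream of Cpr49Af at rank 10641, just outside the IDR list, and found in all 3 replicates.

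Among the genes outside clusters, Cpr73D had the strongest summit of the family. It lay 637 bp downstream of a Cpr73D TSS in its 5′ UTR (16957052 on 3L, interval 16956728 to 16957526), with signal 1636 and rank 849. Its signals in replicates 1, 2 and 3 were 526, 435 and 690, at ranks 961, 745 and 883. The same interval held a weaker summit at 434 bp (16957255), with signal 481, rank 6330 and replicate ranks of 9929, 11204 and 4245. Both were in an intron of Ogdh, the gene of a citric acid cycle enzyme, and nearer to an Ogdh TSS, 387 and 184 bp upstream of it. Cpr67B had a summit 495 bp upstream (9404302, interval 9404217 to 9404413), with signal 380, rank 8401 and replicate ranks of 6699, 8781 and 11535. Counting a gene where it had the nearest protein-coding TSS, Cpr73D and Cpr49Ab dropped out and 9 Cpr genes were left. The share of all genes under this rule was not counted, so the 9 cannot be read as high or low.

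Over all 14, the summits at Cpr genes were found within 100 bp in every replicate and were mostly weak. A summit lay within 100 bp of each of the 14 in all 3 replicate lists, as it did for 91.4% of all IDR summits and 89.9% of the 4802 IDR summits within 1 kb of any protein-coding TSS. With a match distance of 50 bp, 10 of the 14 had one in all 3 lists. The share of all IDR summits at that distance was not counted. In the strongest 10553 peaks of each replicate, 7 of the 14 were found in all 3, against 67.4% of all IDR summits and 68.6% of those at protein-coding TSSs. The median rank was 6383, against 4744 for the summits at protein-coding TSSs and 5277 for the middle of the list. The median signal was 478, against 601 and 553. At or above the list's median signal were 3 of 14 (21.4%, interval 4.66 to 50.8%), against 55.2% of summits at protein-coding TSSs. By the strongest summit of each gene, 2 of 11 Cpr genes, Cpr73D and Cpr67Fb, fell in the strongest 25% of the list, against 38.5% of all genes with a summit.

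**Figure D4:**
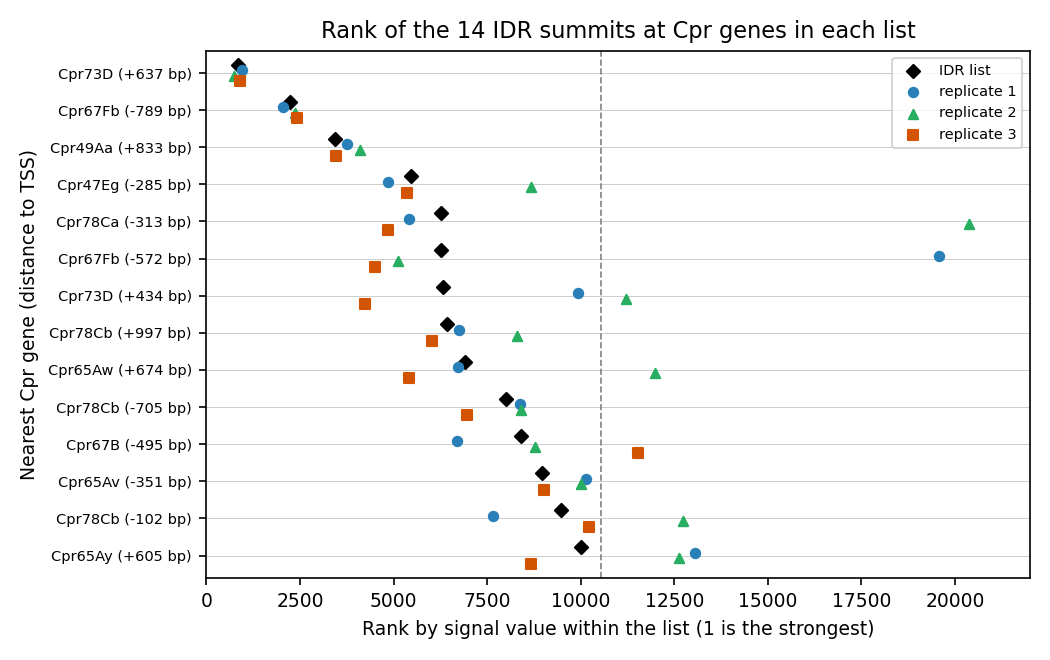
Rank by signal value (horizontal axis, 1 is the strongest) of the 14 IDR summits at Cpr genes in the IDR list and in each replicate list, named by the nearest Cpr gene and the distance to its TSS. The dashed line marks rank 10553, the length of the IDR list. The summits of Cpr73D (+637 bp), Cpr67Fb (−789 bp) and Cpr49Aa (+833 bp) hold their order in every replicate, while those of Cpr78Ca (−313 bp) and Cpr67Fb (−572 bp) fall to ranks 20382 and 19573 in 1 replicate each.

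The 14 summits also lay farther from the TSS than is usual for summits of this kind. Their median distance was 588 bp, against 173 bp for the 4802 summits within 1 kb of a protein-coding TSS. The measures differ: the 14 were measured to the nearest Cpr TSS, the 4802 to the nearest TSS of any protein-coding gene. By the latter, the Cpr73D summits at 637 and 434 bp would stand at 387 and 184 bp, from Ogdh. Within 500 bp of a Cpr TSS lay 6 of 14, against 77.3%, and within 100 bp none, against 33.7%. Upstream of the nearest Cpr TSS were 8, and downstream 6. By annotation, 10 were intergenic, 3 in a 5′ UTR and 1 in a 3′ UTR. For 12 the nearest protein-coding TSS was that of a Cpr gene, and for the other 2 that of Ogdh.

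The TEA-domain core site was not seen at these summits. CATTCC lay within 100 bp of 0 of 14, which allows a share of up to 21.4% by a limit of 3 counts. It was present at 16.5% of summits at protein-coding TSSs and 19.8% of all IDR summits, shares that this limit does not exclude. Of the 29 pooled summits within 1 kb of a Cpr TSS, 1 had the site (3.45%, interval 0.0873 to 17.8%), against 16.4% of the pooled list. It was the weak summit 474 bp downstream of the Cpr78Ca TSS, at rank 28973. Of the 26 IDR summits within 2000 bp, 2 had it, those upstream of Cpr49Ad and Cpr65Au, and both were nearer to another gene, Or49a and Lcp65Ag2. AATTCC, which differs in its first letter, was at 4 of 14 (28.6%), against 22.6% and 23.5%. CTACTC, the core letters in another order, was at 0 of 14, against 3.92% and 3.63%.

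Other letters were as common as elsewhere, within the counts that 14 summits give. GAGAG was at 4 of 14 summits (28.6%), against 31.7% of summits at protein-coding TSSs. TATAAA was also at 4, against 24.9%. The initiator letters TCAGT were at 4 as well, against 31.9%. TATCGATA, the DNA replication-related element, was found at 0 of 14, against 4.27%. AACCGGTT, the site of the epidermal factor Grainyhead, was at 1, in the Cpr65Aw window printed above, against 0.604%. The median GC content of the windows was 42%, against 41.8%. A match describes the letters and not the binding of a factor.

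Most Cpr promoters held a TATA box in its usual letters. TATAAA lay 45 to 11 bases upstream of a TSS in 43 of 70 Cpr genes (61.4%), against 10.9% of all protein-coding genes, on the gene's own strand and counting any TSS. The promoters printed above show it between 24 and 29 bases upstream in Cpr67Fa1, Cpr78Cc, Cpr65Av and Cpr65Ea. TATCGATA, from 250 bases upstream to 50 downstream on either strand, was in 1.43% of Cpr promoters and 9.37% of all. In the same window AATTCC was in 8.57% and 17%, CATTCC in 8.57% (6 genes) and 11%, GAGAG in 32.9% and 29.8%, and TCAGT in 60% and 51.6%.

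The share of genes with a summit was also set out by TATAAA class, in the Cpr genes and across the genome. Among protein-coding genes with 1 TSS, an IDR summit lay within 1 kb of 12.2% of those with TATAAA and 24% of those without. Among Cpr genes it lay near 5 of 43 with TATAAA (11.6%, interval 3.89 to 25.1%) and 6 of 27 without (22.2%, interval 8.62 to 42.3%). Each Cpr share was close to that of the 1-TSS genes of its class. Over all protein-coding genes the shares were 20.7% with TATAAA and 31.7% without. The Cpr intervals hold the shares of both gene sets, so they cannot tell them apart. When genes of like length and TSS number were also required to be of the same TATAAA class (35 to 3480 genes per Cpr gene), their mean share with an IDR summit was 17.9%, beside 15.7% for the Cpr genes. In the pooled list that share was 30.4%, beside 25.7%. In the IDR list it was 14.2% over the Cpr genes with TATAAA and 23.9% over those without. The difference between the classes was not tested in the Cpr genes, and the intervals overlap.

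**Figure D5:**
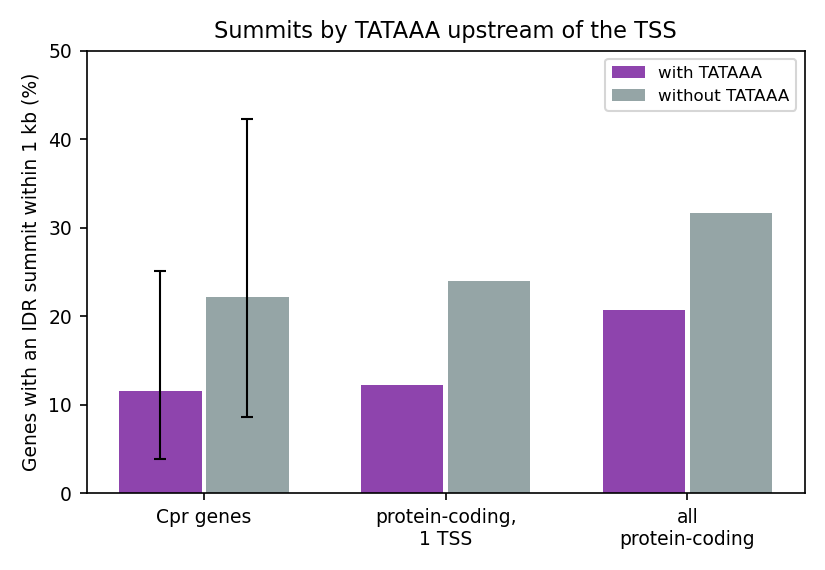
Genes that have an IDR summit at most 1 kb from a TSS (percent, vertical axis from 0), for genes with and without TATAAA 45 to 11 bases upstream, in Cpr genes, protein-coding genes with 1 TSS and all protein-coding genes. Error bars on the Cpr genes are 95% exact Clopper-Pearson intervals. The Cpr bars stand at 11.6% and 22.2% and those of 1-TSS genes at 12.2% and 24%.

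Other families of cuticle genes gave a range around the Cpr share. Of 28 further Rebers-Riddiford genes, such as the larval cuticle genes Lcp and the pupal genes Edg, 2 had an IDR summit within 1 kb (7.14%), Lcp65Ae at rank 5134 and Lcp65Ag2 at rank 9961, and 6 a pooled summit (21.4%). Tweedle genes encode cuticle proteins of a separate fold, and 7 of 23 had an IDR summit (30.4%), the strongest at TwdlP (rank 1092) and TwdlH (rank 1871), with 13 in the pooled list (56.5%). Of 9 genes of the peritrophin-like group, whose products bind chitin through another domain, obst-B (rank 2533) and Gasp (rank 6352) had an IDR summit (22.2%), and 5 had a pooled summit (55.6%). Over all protein-coding genes the shares were 30.5% and 42.7%, near the Tweedle value for IDR summits. The median distance to the nearest IDR summit was 5702 bp in the Rebers-Riddiford genes, 3356 bp in Tweedle and 5094 bp in the peritrophin-like group, beside 6860 bp in Cpr. These differences between families were not tested.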

How the data were processed

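The samples were 3 replicates of 1 group, so replicate values are listed and no test was made. The deposited signal value of each peak is the authors' own. It is on the same scale in the IDR and pooled lists and on other scales in the replicate lists. The deposited −log10 q value stood at its ceiling of 4.38 for all 10553 IDR peaks and ordered nothing. The p-value column held no values. The summit offset per peak, deposited by the authors, was added to the start to give the summit. Per the file headers the lists are on dm6 and were made against a control, not used here. Aligner, peak caller and IDR threshold are not given in the sources used here, nor why 4 lists hold exactly 30000 peaks.

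From these files, summits within 1 kb of any TSS of the annotation were counted in pandas 2.3.3 and numpy 2.4.6 under Python 3.11.15, intervals were computed in scipy 1.17.1 and figures drawn in matplotlib 3.10.9. Chromosome 4, which has no Cpr gene, X and the 4 major autosome arms were included. A summit was called shared with a replicate within 100 bp. Motifs were searched in the RefSeq Release 6 genome. The counting was tested on simulated peaks. The members, motifs and families were chosen with earlier results of these data known, and the genes named are those with an IDR or pooled summit within 1 kb, those that another window or definition moves, and the clusters of at least 3 genes. Cpr12A was named after its value was seen. The TATAAA class was added after the values were seen. Alternatives were other windows, thresholds, gap lengths and length factors, and only the summits shared with each pair of replicates.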

Additional observations from a re-analysis of the deposited data

How the results depend on the processing

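The count of 11 Cpr genes with an IDR summit was 6 with a window of 500 bp, 17 with 2000 bp, 4 above the median signal, 18 in the pooled list, 20 for a summit in the gene or within 2000 bp, and 1 for a peak interval over the TSS. With 500 bp, Cpr49Aa, Cpr49Ab, Cpr65Aw, Cpr65Ay and Cpr67Fb were lost. With 2000 bp, Cpr23B, Cpr47Ef, Cpr49Ad, Cpr65Au, Cpr67Fa2 and Cpr78Cc were gained. The lists were not remade without a replicate. Instead, summits of the IDR and pooled lists were kept if 2 given replicates each had one within 100 bp. All 14 IDR summits had one in every replicate, so the count of 11 could not change. The pooled count of 18 was 15 to 16 under this filter. That count was 10 with 500 bp and 31 with 2000 bp. The distinct IDR summits numbered 6 and 26, and the share of genes of like length and TSS number was 17.3% and 28.6%. The median distance of 6860 bp ran from 6860 to 8860 bp when summits had to be shared with 2 given replicates. It was 10436 bp above the median signal, and 5933, 6014 and 6602 bp in the strongest peaks of replicates 1, 2 and 3. All of these distance alternatives were chosen after seeing the data. These alternatives change the window, the threshold or the peaks counted by construction. No share over all genes was counted for a summit in the gene, an interval over the TSS, or pooled summits within 500 and 2000 bp. Nor was one counted for the nearest protein-coding TSS or for the pooled list under the replicate filter. Those counts cannot be read as high or low for the family. CATTCC was at 0 of the 14 summits also with a motif window of 200 bp, where the share of all IDR summits was not counted. The 0 with 50 bp was fixed in advance, because that window lies inside the one of 100 bp. Gaps of 10 and 50 kb left 7 groups with a summit. With TATAAA counted 60 to 1 bases upstream, also added later, 49 Cpr genes had it (70%), against 14.1% of all protein-coding genes. No paired analysis was possible because the samples form 1 group. Depth is unknown, and with 70 genes and 14 summits differences of a few genes are not detectable.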
